A study of Bos indicus and Bos indicus x Bos taurus and Bos taurus with 6 samples.

Results

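The BCL2 family decides whether a cell opens its mitochondria and dies by apoptosis, and 9 of its genes were followed in cow blood: the survival genes BCL2, BCL2L1 and MCL1, the effector genes BAX and BAK1, and the BH3-only genes BCL2L11, BBC3, BID and BAD. They were taken by gene symbol from the table of gene counts, where all 9 were found among 21698 genes. All 9 passed the low-count filter, so that none is missing from the 13455 genes tested. RNA was sequenced from jugular whole blood of Kedah-Kelantan cows (an indigenous Bos indicus breed, labelled heat-tolerant), Brangus cows (a composite breed, labelled intermediate) and Holstein Friesian cows (a Bos taurus dairy breed, labelled heat-vulnerable), with 2 biological replicates per breed. All cows were healthy, non-pregnant, non-lactating adult females, on average 4.5 ± 1.2 years old and 450 ± 15 kg in weight, kept on 1 farm and sampled under heat stress at a temperature-humidity index of 44.68, so the breeds share the heat load and no unheated group is compared. The series' design mentions 4 cows of each breed, and whether the 2 libraries pool them is not given in the sources used here.

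Proteins of this family meet at the outer mitochondrial membrane. BAX and BAK1 form the pores that release cytochrome c, BCL2, BCL2L1 and MCL1 hold them in check, and the BH3-only proteins sense stress and bind the survival proteins or trigger the effectors. In blood the family is known for setting the lifespan of each cell type: MCL1 keeps neutrophils and lymphocytes alive, BCL2 supports resting lymphocytes, and BCL2L1, whose main product is BCL-XL, supports red cell precursors and platelets, roles known best from mice and humans.

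The libraries held 25275377 to 28668857 counts. The 2 Holstein Friesian libraries stood apart from each other in blood cell markers, whose levels are given as summed CPM (reads scaled to library size) over a list. Neutrophil markers (9 of 9 tested) summed to 991 CPM in Holstein Friesian replicate 1 and 8253 in replicate 2, monocyte markers (7 of 7) to 466 and 7481, and B cell markers (9 of 9) to 3069 and 226. The other 4 libraries lay between these values in the neutrophil and monocyte lists (2584 to 4596 and 1117 to 1593 CPM), and from 1964 to 3191 CPM in the B cell list. T cell markers (10 of 10) were steady, at 2431 to 3328 CPM over all 6 libraries. Erythroid transcripts were few for whole blood: HBB had 2831 to 14770 counts, while HBA1 and CA1 were at 0 in every library.

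The family was dominated by MCL1 at the RNA level. Levels of different genes are compared as deposited FPKM, which divides a count by the gene's length and the library's total. MCL1 (chromosome 3, 20129373 to 20134013, plus strand) was at 348 and 307 FPKM in Kedah-Kelantan cows, 254 and 272 in Brangus cows, and 224 and 404 in Holstein Friesian cows, replicate 1 first. It made up 80.7% and 76.3% of the summed FPKM of the 9 genes in Kedah-Kelantan cows, 72.4% and 75.0% in Brangus cows, and 69.0% and 81.1% in Holstein Friesian cows. Both extremes of that share were Holstein Friesian libraries. The effectors BAX and BAK1 followed, with 28.1 to 47.4 and 14.0 to 21.1 FPKM over the 6 libraries, together with BAD at 14.4 to 20.1. BCL2L1 (7.09 to 15.3 FPKM) and BID (7.01 to 8.08) lay below them, and BCL2L11 (2.2 to 4.86), BBC3 (0.84 to 2.16) and BCL2 (0.49 to 1.23) were lowest. BCL2 was below BBC3 in each library but Kedah-Kelantan replicate 1, where they stood at 1.23 and 1.18 FPKM. The order depends on the gene length behind the FPKM. The length implied by counts and FPKM was 0.781 kb for BAX, 3.76 kb for MCL1, 19.7 kb for BCL2 and 23.9 kb for BCL2L11, and in plain counts BCL2L11 (1331 to 3263) was second to MCL1 (24159 to 42727).

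**Figure D1:**
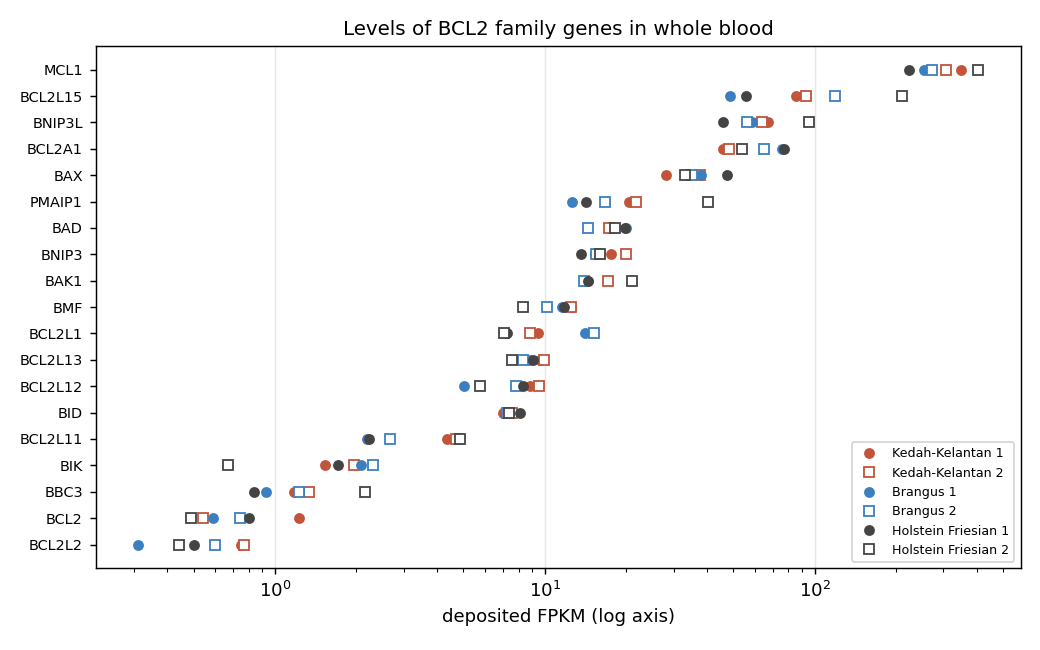
Deposited FPKM (log axis) of 19 BCL2 family genes, the 9 followed here and the related genes with FPKM above 0 in every library, in each of the 6 libraries. Colours mark the breed, filled circles replicate 1 and open squares replicate 2. MCL1 lies highest, at 224 to 404 FPKM, while BCL2 spans 0.49 to 1.23.

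BCL2L1 set Brangus apart from both other breeds. BCL2L1 (chromosome 13, 61220110 to 61271376, minus strand) had 747 and 703 counts in Kedah-Kelantan cows, 1012 and 1101 in Brangus cows, and 591 and 565 in Holstein Friesian cows. In CPM this was 23.4 ± 0.843 (SD, n = 2 for each breed) in Kedah-Kelantan cows, 45.3 ± 2.81 in Brangus cows and 20.7 ± 1.17 in Holstein Friesian cows. Both Brangus libraries lay above the other 4. The Kedah-Kelantan libraries, at 22.8 and 24.0 CPM, lay just above those of Holstein Friesian, at 19.8 and 21.5, so no pair of breeds overlapped. The same held for 64.2% of all genes for Kedah-Kelantan over Brangus and 34.3% for Brangus over Holstein Friesian. For Kedah-Kelantan over Holstein Friesian it held for 30.7%. On the log2 scale the difference was 1.13 for Brangus over Holstein Friesian (SE 0.18, 95% interval 0.69 to 1.57, edgeR adjusted p = 0.47) and -0.95 for Kedah-Kelantan over Brangus (SE 0.17, interval -1.39 to -0.51, edgeR adjusted p = 0.353). Neither passed the adjusted p of 0.05 in the fit over all 6 libraries, although BCL2L1 ranked 28 and 81 by p among the 13455 genes. For Kedah-Kelantan over Holstein Friesian the value was 0.18 (SE 0.17, interval -0.25 to 0.62, edgeR adjusted p = 0.995).

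The BCL2L1 values kept their sign under every alternative tried. Over 15 alternatives the log2 fold change was 0.94 to 1.16 for Brangus over Holstein Friesian, with adjusted p from 6.17e-06 to 0.967, and -1.02 to -0.63 for Kedah-Kelantan over Brangus, with adjusted p from 0.000112 to 1. DESeq2 called both (adjusted p = 6.17e-06 and 0.000112). edgeR called Brangus over Holstein Friesian without either Holstein Friesian library, with adjusted p of 0.00373 without replicate 1 and 0.0107 without replicate 2. It called Kedah-Kelantan over Brangus without either Holstein Friesian library (adjusted p = 0.00504 and 0.00511, in the same order), where 17.4% and 17.5% of all genes were called, and when only these 2 breeds were in the fit (adjusted p = 0.00539), where 19.3% of all genes were called.

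Platelet and erythroid markers were, like BCL2L1, highest in Brangus. Platelet markers (7 of 8 tested) summed to 296 and 342 CPM in Kedah-Kelantan cows, 1280 and 1403 in Brangus cows, and 418 and 548 in Holstein Friesian cows. The 6 of 10 erythroid markers that were tested, mostly HBB, summed to 147 and 185 CPM in Kedah-Kelantan cows, 446 and 641 in Brangus cows, and 101 and 232 in Holstein Friesian cows. Between Kedah-Kelantan and Holstein Friesian the summed platelet list was lower in Kedah-Kelantan, while BCL2L1 was slightly higher there. Of the 7 tested platelet genes, 2 were higher and 5 lower in Kedah-Kelantan, with a median log2 fold change of -0.31. Without Holstein Friesian replicate 2, 4 were higher and 3 lower, with a median of 0.75. The part of both lists in the BCL2L1 result was not tested. In bulk blood RNA, fewer cells of a type and less RNA per cell cannot be told apart.

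MCL1, a survival protein with a very short half-life, differed more between the Holstein Friesian libraries than between breeds. It had 1174 and 1056 CPM in Kedah-Kelantan cows, 1035 and 1119 in Brangus cows, and 811 and 1624 in Holstein Friesian cows. The lowest and the highest library were both Holstein Friesian, and the other breeds lay between them. Its log2 fold change was -0.13 (SE 0.35, 95% interval -1.0 to 0.75) for Kedah-Kelantan over Holstein Friesian, -0.18 (SE 0.35, -1.05 to 0.70) for Brangus over Holstein Friesian and 0.05 (SE 0.35, -0.82 to 0.92) for Kedah-Kelantan over Brangus, with edgeR adjusted p of 0.995, 0.884 and 0.968. Without Holstein Friesian replicate 1, MCL1 passed as lower in both Kedah-Kelantan (-0.54, edgeR adjusted p = 0.0256) and Brangus (-0.60, edgeR adjusted p = 0.0106). Without replicate 2 the values were 0.42 and 0.37 and did not pass.

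BCL2, the founding member that protects resting lymphocytes, varied most within Kedah-Kelantan. BCL2 (chromosome 24, 61396513 to 61589028, minus strand) had 679 and 299 counts in Kedah-Kelantan cows, 297 and 374 in Brangus cows, and 451 and 270 in Holstein Friesian cows. The exact 95% Poisson intervals of the Kedah-Kelantan counts, 629 to 732 and 266 to 335, do not meet, and they cover counting error only. In CPM this was 15.8 ± 8.58 (SD, n = 2 for each breed) in Kedah-Kelantan cows, 14.4 ± 2.37 in Brangus cows and 12.7 ± 3.44 in Holstein Friesian cows, and all breeds overlapped. The log2 fold changes were 0.31 (SE 0.45, 95% interval -0.83 to 1.46) for Kedah-Kelantan over Holstein Friesian, 0.18 (SE 0.46, -0.96 to 1.32) for Brangus over Holstein Friesian and 0.13 (SE 0.45, -1.01 to 1.28) for Kedah-Kelantan over Brangus. edgeR's adjusted p was 0.995, 0.915 and 0.933. Without Kedah-Kelantan replicate 1 the first and the third were -0.38 and -0.56.

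**Figure D2:**
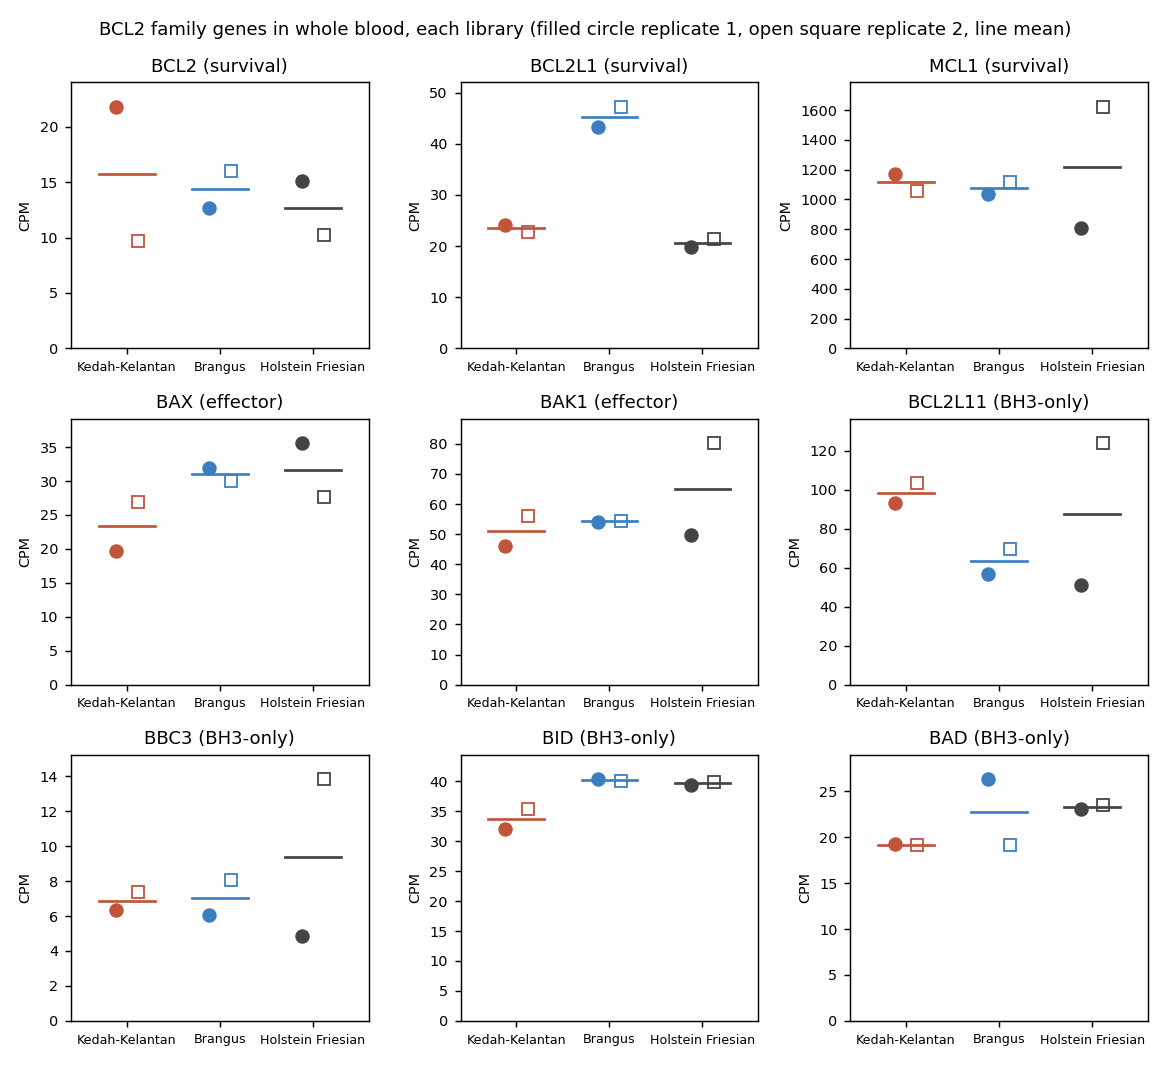
CPM of the 9 BCL2 family genes by breed, with a filled circle for replicate 1, an open square for replicate 2 and a line for the mean of each breed. BCL2L1 lies at 43.3 and 47.3 CPM in Brangus cows, above the other 4 libraries, while MCL1, BAK1, BCL2L11 and BBC3 are highest in Holstein Friesian replicate 2.

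Of the effectors, BAX was lowest in Kedah-Kelantan and BAK1 highest in 1 Holstein Friesian library. BAX (chromosome 18, 55530787 to 55534997, plus strand), which moves from the cytosol to mitochondria to form pores, had 19.7 and 27.0 CPM in Kedah-Kelantan cows, 31.9 and 30.1 in Brangus cows, and 35.6 and 27.7 in Holstein Friesian cows. The Kedah-Kelantan libraries lay below all others, replicate 2 by a small margin. Its log2 fold change was -0.44 (SE 0.24, 95% interval -1.05 to 0.17, edgeR adjusted p = 0.995) for Kedah-Kelantan over Holstein Friesian and -0.41 (SE 0.24, -1.02 to 0.20, edgeR adjusted p = 0.555) for Kedah-Kelantan over Brangus. Both stayed negative in 15 alternatives, at -0.68 to -0.23 and -0.64 to -0.16, and neither passed in any. Brangus over Holstein Friesian stood at -0.03 (SE 0.24).

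BAK1 (chromosome 23, 7712944 to 7720170, minus strand), the effector that resides in the mitochondrial membrane, had 46.2 and 55.9 CPM in Kedah-Kelantan cows, 54.1 and 54.4 in Brangus cows, and 49.7 and 80.4 in Holstein Friesian cows. Only Holstein Friesian replicate 2 stood out. edgeR's log2 fold change was -0.35 (SE 0.27) for Kedah-Kelantan over Holstein Friesian, -0.26 (SE 0.27) for Brangus over Holstein Friesian and -0.09 (SE 0.27) for Kedah-Kelantan over Brangus, with edgeR adjusted p of 0.995, 0.774 and 0.928. Without Holstein Friesian replicate 1 the first pair passed, at -0.65 and -0.57 (edgeR adjusted p = 0.0292 and 0.0315), and without replicate 2 they were -0.0026 and 0.09.

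Among the BH3-only genes, BCL2L11 was higher in both Kedah-Kelantan libraries than in both Brangus ones, but did not pass with all 6 libraries. BCL2L11 (chromosome 11, 1157295 to 1236698, minus strand) encodes BIM, which binds every survival protein of the family and limits the life of lymphocytes and neutrophils in mice. It had 2889 and 3175 counts in Kedah-Kelantan cows, 1331 and 1618 in Brangus cows, and 1530 and 3263 in Holstein Friesian cows, or 98.1 ± 7.22, 63.3 ± 8.85 and 87.7 ± 51.4 CPM (SD, n = 2 for each breed, in the same order). The Kedah-Kelantan and Brangus libraries did not overlap, as in 64.2% of all genes, while the Holstein Friesian libraries were the lowest and the highest of all. The log2 fold change for Kedah-Kelantan over Brangus was 0.63 (SE 0.42, 95% interval -0.43 to 1.69, edgeR adjusted p = 0.597). It was 0.49 to 0.87 over 15 alternatives and passed in 3 of them: with only the 2 breeds in the fit (adjusted p = 0.0191), without Holstein Friesian replicate 1 (0.0176) and without replicate 2 (0.0185). Those fits called 19.3%, 17.4% and 17.5% of all genes. Eosinophil and basophil markers (5 of 10 tested) were likewise higher in Kedah-Kelantan cows, at 261 and 270 CPM, than in Brangus cows, at 38.7 and 36.5, and NK and cytotoxic markers (8 of 8) stood at 610 and 682 against 229 and 301 CPM. In Holstein Friesian cows these lists stood at 33.4 and 676 CPM and at 554 and 303 CPM, where BCL2L11 had 51.3 and 124 CPM. The NK and cytotoxic list thus ran opposite to BCL2L11 there. The part of both lists in the BCL2L11 result was not tested.

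Against Holstein Friesian the direction of BCL2L11 depended on which library was used. Its log2 fold change was 0.16 (SE 0.42, edgeR adjusted p = 0.995) for Kedah-Kelantan and -0.47 (SE 0.42, edgeR adjusted p = 0.745) for Brangus. Without Holstein Friesian replicate 2 Kedah-Kelantan was higher by 0.89 (edgeR adjusted p = 0.0142) and Brangus stood at 0.26. Without replicate 1 Brangus was lower, at -0.98 (edgeR adjusted p = 0.00293), and Kedah-Kelantan stood at -0.34.

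BBC3 (chromosome 18, 54237254 to 54247394, minus strand) encodes PUMA, a target of p53 that binds all survival proteins. It had 197 and 227 counts in Kedah-Kelantan cows, 141 and 188 in Brangus cows, and 145 and 364 in Holstein Friesian cows, or 4.87 to 13.8 CPM over the 6 libraries, the widest range of the 9 genes on the log2 scale. Holstein Friesian replicate 2 was the high library and replicate 1 the low one. In the fit over all libraries its log2 fold change was -0.45 (SE 0.55), -0.41 (SE 0.55) and -0.04 (SE 0.55) for Kedah-Kelantan over Holstein Friesian, Brangus over Holstein Friesian and Kedah-Kelantan over Brangus, with edgeR adjusted p of 0.995, 0.825 and 0.983. Without Holstein Friesian replicate 2 the first pair was 0.45 and 0.50, and without replicate 1 it was -1.01 and -0.98, and none of these passed.

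BID (chromosome 5, 109133402 to 109154398, minus strand), which caspase-8 cleaves to link death receptors to mitochondria, was the steadiest member. It had 32.0 and 35.3 CPM in Kedah-Kelantan cows, 40.4 and 40.1 in Brangus cows, and 39.4 and 40.0 in Holstein Friesian cows. The Kedah-Kelantan libraries were the lowest 2. No pair of breeds overlapped, though the lower Brangus library, at 40.1 CPM, was barely above the higher Holstein Friesian one, at 40.0. Of all genes, 30.7% did not overlap for Kedah-Kelantan over Holstein Friesian, 34.3% for Brangus over Holstein Friesian and 64.2% for Kedah-Kelantan over Brangus. The sign of BID for Brangus over Holstein Friesian changed in 9 of 15 alternatives. The log2 fold change was -0.24 (SE 0.16, 95% interval -0.64 to 0.16) for Kedah-Kelantan over Holstein Friesian, 0.02 (SE 0.16, -0.38 to 0.42) for Brangus over Holstein Friesian and -0.26 (SE 0.16, -0.66 to 0.14) for Kedah-Kelantan over Brangus. edgeR's adjusted p was 0.995, 0.973 and 0.568. On deposited FPKM with 0.1 added, the third was 0.00089 while the median of all genes was 0.28, so the difference depends on the scaling between these breeds.

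BAD (chromosome 29, 42573708 to 42585876, minus strand), which growth factor signals switch off by phosphorylation, had 19.2 and 19.2 CPM in Kedah-Kelantan cows, 26.3 and 19.2 in Brangus cows, and 23.1 and 23.5 in Holstein Friesian cows. The Kedah-Kelantan libraries lay below the Holstein Friesian ones, and those of Brangus spanned both. On the log2 scale the difference was -0.28 (SE 0.23), -0.04 (SE 0.23) and -0.25 (SE 0.23) for Kedah-Kelantan over Holstein Friesian, Brangus over Holstein Friesian and Kedah-Kelantan over Brangus, with edgeR adjusted p of 0.995, 0.968 and 0.71.

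**Figure D3:**
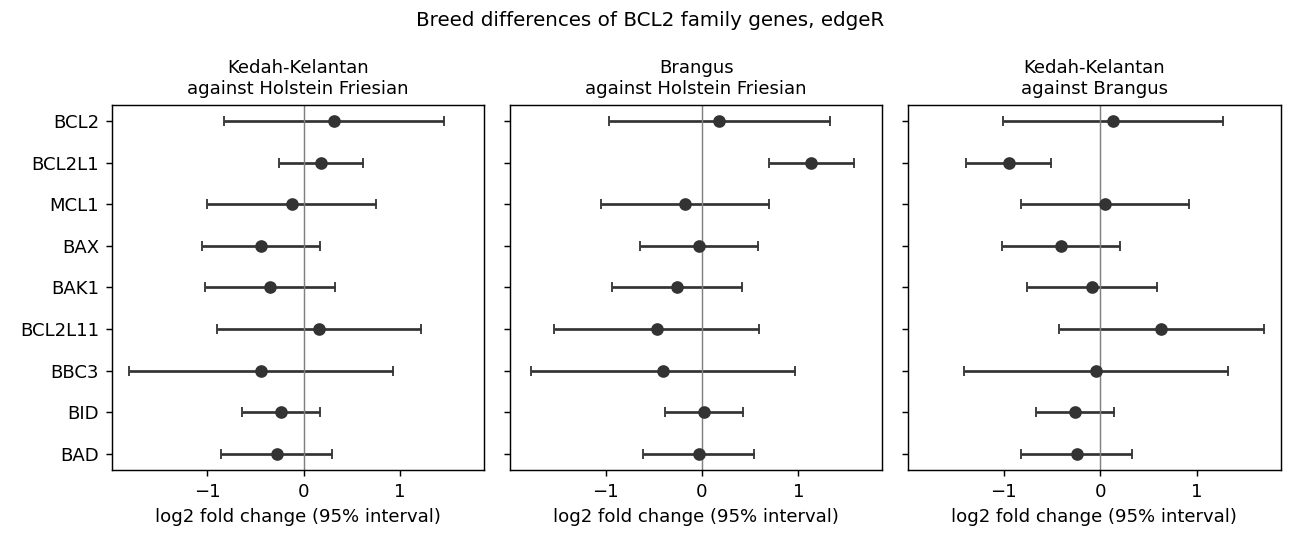
Log2 fold change of the 9 BCL2 family genes in the 3 breed comparisons, with bars for the 95% interval from the edgeR fit over all 6 libraries. The intervals of BCL2L1 in Brangus over Holstein Friesian (0.69 to 1.57) and in Kedah-Kelantan over Brangus (-1.39 to -0.51) do not include 0, unadjusted for the number of genes, and the others do.

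Read as a family, the 9 genes showed no edgeR call in the fit over all 6 libraries, while DESeq2 called BCL2L1. With edgeR at an adjusted p under 0.05, 0 of 9 were called for Kedah-Kelantan over Holstein Friesian, where 0.00743% of all tested genes were called, 0 of 9 for Brangus over Holstein Friesian (0.00743%), 0 of 9 for Kedah-Kelantan over Brangus (0%) and 0 of 9 for any breed difference (0%). At an unadjusted p under 0.05 edgeR had 0, 1 and 1 of the 9 in the 3 pairwise comparisons, beside 4.04%, 7.62% and 11.6% of all genes, and 1 of 9 for any breed difference, beside 8.23%. DESeq2 called 0, 1 and 1 in the pairwise comparisons, beside 1.01%, 2.33% and 4.99%. The 1 gene was BCL2L1 each time. Genes whose breeds did not overlap numbered 4 of 9 for Kedah-Kelantan over Holstein Friesian (BCL2L1 higher, and BAX, BID and BAD lower), where 30.7% of all genes did not overlap, 18.1% on the higher and 12.6% on the lower side. They were 2 of 9 (BCL2L1 and BID higher) for Brangus over Holstein Friesian (34.3%, or 18.4% higher and 15.9% lower) and 4 of 9 (BCL2L11 higher, and BCL2L1, BAX and BID lower) for Kedah-Kelantan over Brangus (64.2%, or 33.5% higher and 30.7% lower). The first count lies above its background and the other two below theirs, and nothing particular to the family is read from them. In each comparison 3 members had a positive and 6 a negative log2 fold change, with medians of -0.24, -0.04 and -0.09 beside -0.03, -0.03 and 0.02 over all tested genes. The comparisons share samples and are not independent.

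Calls of members against Holstein Friesian came and went with its libraries. Without replicate 1, edgeR called 2 of 9 for Kedah-Kelantan (MCL1 and BAK1, both lower), where 17.5% of all genes were called, and 4 of 9 for Brangus (BCL2L1 higher, and MCL1, BAK1 and BCL2L11 lower), where 31.3% were called. Without replicate 2 it called 1 of 9 in each (BCL2L11 and BCL2L1, both higher), where 11.9% and 6.06% were called. In these fits the lone Holstein Friesian library is assumed to vary like the other breeds. Holstein Friesian replicate 2 minus replicate 1 was 1.00 for MCL1, 1.27 for BCL2L11, 1.49 for BBC3 and 0.69 for BAK1 on the log2 CPM scale, against -0.56 for BCL2 and -0.36 for BAX. Between these 2 libraries, neutrophil, monocyte, and eosinophil and basophil markers were likewise higher in replicate 2, and B cell markers were lower there, as the heat map of deviations shows. BCL2 deviated by 0.14 and -0.42 in the Holstein Friesian libraries, where B cell markers stood at 0.92 and -2.76. In the Kedah-Kelantan libraries it deviated by 0.67 and -0.50, where B cell markers stood at 0.27 and 0.20. PAX5, a gene of that list, had 1388 and 587 counts in the Kedah-Kelantan libraries. The part of these markers was not tested.

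**Figure D4:**
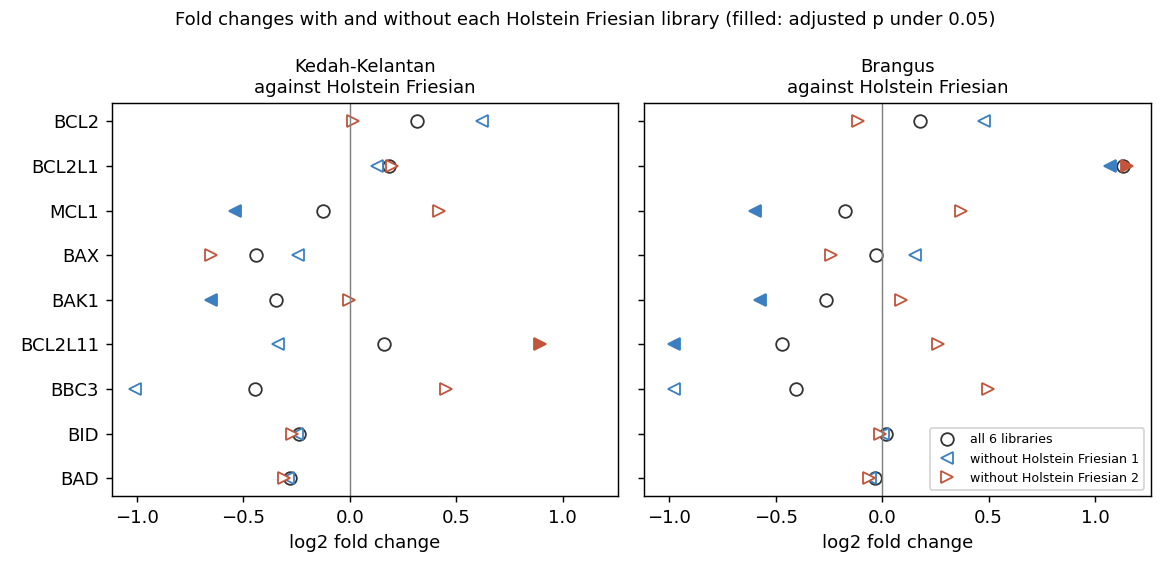
Log2 fold change of the 9 genes against Holstein Friesian with all 6 libraries (circles), without Holstein Friesian replicate 1 (left triangles) and without replicate 2 (right triangles), filled where the adjusted p was under 0.05. In Kedah-Kelantan MCL1 stands at -0.54 without replicate 1 and at 0.42 without replicate 2, while BCL2L1 stays at 1.07 to 1.15 in Brangus.

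**Figure D5:**
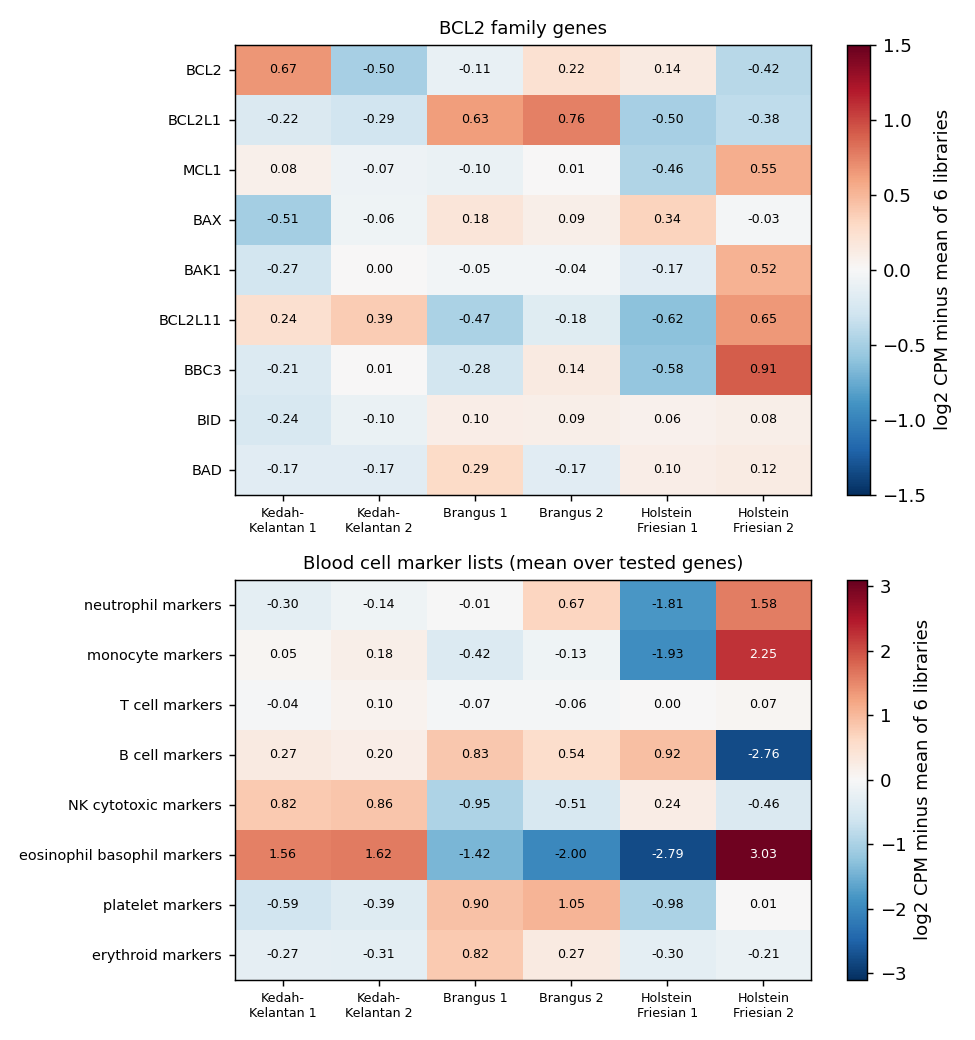
Deviation of each library from the mean of the 6 libraries in log2 CPM, for the 9 BCL2 family genes (top) and for the mean of 8 blood cell marker lists (bottom), with red above and blue below the mean. BCL2L1 is at 0.63 and 0.76 in Brangus cows, where platelet markers are at 0.90 and 1.05, and BBC3 is at 0.91 in Holstein Friesian replicate 2, where monocyte markers are at 2.25.

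Ratios of survival to effector reads within a library, which need no scaling between libraries, were compared between the breeds. Reads are not divided by gene length, and the implied length was 19.7 kb for BCL2 and 0.781 kb for BAX. Only differences between libraries can therefore be read from these ratios, not which RNA was more abundant. The log2 ratio of BCL2 to BAX counts was 0.15 and -1.47 in Kedah-Kelantan cows, -1.33 and -0.90 in Brangus cows, and -1.24 and -1.43 in Holstein Friesian cows. Only Kedah-Kelantan replicate 1 had more BCL2 than BAX reads, and the breeds overlapped. In FPKM that library had 1.23 for BCL2 and 28.1 for BAX. The log2 ratio of MCL1 to BAX was 5.90 and 5.29 in Kedah-Kelantan cows, 5.02 and 5.22 in Brangus cows, and 4.51 and 5.87 in Holstein Friesian cows. Here the Kedah-Kelantan libraries lay above the Brangus ones, by 0.47 on average, or 0.17 without Kedah-Kelantan replicate 1. Over the 6 tests of breed pairs, the exact two-sided permutation p was 0.333 to 1, where 0.333 is the smallest that 2 against 2 libraries allow, and every adjusted p was 1.

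The other genes of the family were taken from a list of 14, of which 11 were tested. HRK and BCL2L10 had 0 counts in all libraries and BCL2L14 had 1 count in 1 library. edgeR called 0 of 11 in each comparison, with 1, 0 and 1 at an unadjusted p under 0.05 for Kedah-Kelantan over Holstein Friesian, Brangus over Holstein Friesian and Kedah-Kelantan over Brangus, and DESeq2 called 0, 0 and 1. That gene was BCL2A1, an NF-kB target that protects activated leukocytes, with 50.5 and 54.0 CPM in Kedah-Kelantan cows, 100 and 87.3 in Brangus cows, and 91.3 and 70.4 in Holstein Friesian cows. Both Kedah-Kelantan libraries lay below the other 4. Its log2 fold change was -0.85 (SE 0.20, edgeR adjusted p = 0.353, DESeq2 adjusted p = 0.0126) for Kedah-Kelantan over Brangus, -0.63 (SE 0.20, edgeR adjusted p = 0.995) for Kedah-Kelantan over Holstein Friesian and 0.22 (SE 0.20) for Brangus over Holstein Friesian. PMAIP1, which encodes the MCL1-binding protein NOXA, had 34.9 and 38.0 CPM in Kedah-Kelantan cows, 25.9 and 34.8 in Brangus cows, and 26.0 and 81.9 in Holstein Friesian cows, again highest in Holstein Friesian replicate 2. BMF, a BH3-only gene, was even, at 41.6 to 58.6 CPM over the 6 libraries, BCL2L2, a survival gene, was low, at 1.41 to 2.96 CPM, and BIK, another BH3-only gene, had 21 to 66 counts. None of these 4 passed with all 6 libraries. Without Holstein Friesian replicate 1, PMAIP1 and BNIP3L, a mitophagy receptor, were lower in both other breeds. Their log2 fold changes were -1.17 and -0.77 for Kedah-Kelantan over Holstein Friesian and -1.44 and -0.71 for Brangus over Holstein Friesian. BCL2A1 stood at -0.84 for Kedah-Kelantan over Brangus without Holstein Friesian replicate 1 and at -0.85 without replicate 2. For Kedah-Kelantan over Holstein Friesian without replicate 2 it was -0.85.

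Genes downstream of the mitochondria were tested as a list of 16. With all 6 libraries edgeR called 0 of 16 in each comparison, with 0, 0 and 3 at an unadjusted p under 0.05, and DESeq2 called 0. Of the 16, 12 were lower in Kedah-Kelantan cows than in those of Holstein Friesian (median log2 fold change -0.22 beside -0.03 over all tested genes), 9 lower in Brangus than in Holstein Friesian (median -0.04) and 12 lower in Kedah-Kelantan than in Brangus (median -0.13 beside 0.02). Without Holstein Friesian replicate 1 the first count was 8 of 16 with a median of -0.03. CYCS, which encodes cytochrome c, had 33.7 and 37.2 CPM in Kedah-Kelantan cows, 61.4 and 53.5 in Brangus cows, and 54.4 and 30.6 in Holstein Friesian cows. APAF1, the scaffold on which cytochrome c assembles the apoptosome, went the other way between these breeds, at 79.3 and 71.7 CPM in Kedah-Kelantan cows, 58.0 and 45.1 in Brangus cows, and 59.2 and 71.9 in Holstein Friesian cows. For Kedah-Kelantan over Brangus the log2 fold change was -0.70 (SE 0.30) for CYCS and 0.55 (SE 0.21) for APAF1, with edgeR adjusted p of 0.455 and 0.418. The pore genes VDAC2 (-0.48, SE 0.19) and VDAC3 (-0.64, SE 0.25) also did not pass there with all 6 libraries. All 4 kept their direction without Holstein Friesian replicate 1 and without replicate 2, fits for which only log2 fold changes are given here. In this order the values were -0.69 and -0.70 for CYCS and 0.56 and 0.55 for APAF1. VDAC2 stood at -0.47 and -0.48, VDAC3 at -0.63 and -0.64, and the caspase gene CASP6 at -0.88 and -0.89. Medians of the list in these fits were -0.12 and -0.13 for Kedah-Kelantan over Brangus, and -0.02 and -0.05 for Brangus over Holstein Friesian. For Kedah-Kelantan over Holstein Friesian without replicate 2 the median was -0.28. The initiator caspase gene CASP9 had 26.0 to 35.6 CPM over the 6 libraries.

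The death receptor list had 9 tested members, and with all 6 libraries edgeR called none in any comparison, with 1, 0 and 1 at an unadjusted p under 0.05 and 0, 0 and 1 called by DESeq2. All 9 had a negative log2 fold change in Brangus over Holstein Friesian (median -0.33 beside -0.03 over all tested genes), but without Holstein Friesian replicate 2 they were 4 of 9 with a median of 0.08, and without replicate 1 again all 9 with a median of -0.67. Against Holstein Friesian, calls followed the library left out. Without replicate 1, edgeR called 6 of 9 lower for Brangus over Holstein Friesian and 4 of 9 lower for Kedah-Kelantan over Holstein Friesian, beside 31.3% and 17.5% of all genes. Without replicate 2 it called 3 of 9 higher in each, beside 6.06% and 11.9%. The death receptor genes FAS and TNFRSF1A were called in both comparisons each time, lower without replicate 1 and higher without replicate 2. For FAS the values were -1.40 and 0.79 in Kedah-Kelantan, and -1.08 and 1.13 in Brangus. For Kedah-Kelantan over Brangus TNFRSF1A kept its direction, at -0.81 without replicate 1 and -0.82 without replicate 2. FASLG, the ligand by which cytotoxic lymphocytes trigger FAS, was the gene DESeq2 called. It had 17.7 and 15.6 CPM in Kedah-Kelantan cows, 8.95 and 9.06 in Brangus cows, and 13.8 and 12.3 in Holstein Friesian cows, and stood at 0.89 on the log2 scale (SE 0.23, edgeR adjusted p = 0.353, DESeq2 adjusted p = 0.00857) for Kedah-Kelantan over Brangus. Kedah-Kelantan was the highest and Brangus the lowest breed, without overlap. The NK and cytotoxic markers had the same order of breeds, with 554 and 303 CPM in Holstein Friesian cows. There, however, Holstein Friesian replicate 2 was barely above Brangus replicate 2, at 301. FADD, the adaptor of FAS, had 15.9 and 22.5 CPM in Kedah-Kelantan cows, 24.7 and 28.0 in Brangus cows, and 28.3 and 45.1 in Holstein Friesian cows (Kedah-Kelantan over Holstein Friesian -0.93, SE 0.31, edgeR adjusted p = 0.995). CASP8, the initiator caspase that cleaves BID, had 116 to 167 CPM over the 6 libraries.

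Of 16 regulators of the family, edgeR and DESeq2 called none in any comparison with all 6 libraries, with 0, 0 and 1 at an unadjusted p under 0.05. Their medians were -0.05, -0.10 and 0.07 beside -0.03, -0.03 and 0.02 over all tested genes. DDIT3, which encodes the stress factor CHOP, had 23.6 and 27.6 CPM in Kedah-Kelantan cows, 36.1 and 47.2 in Brangus cows, and 24.3 and 36.3 in Holstein Friesian cows. PIM1, a kinase that phosphorylates BAD, had 283 and 314 CPM in Kedah-Kelantan cows, 172 and 204 in Brangus cows, and 227 and 444 in Holstein Friesian cows. HUWE1, a ligase that marks MCL1 for degradation, had 317 and 220 CPM in Kedah-Kelantan cows, 165 and 196 in Brangus cows, and 214 and 220 in Holstein Friesian cows. For Kedah-Kelantan over Brangus their log2 fold changes were -0.70 (SE 0.27), 0.67 (SE 0.34) and 0.57 (SE 0.23), with edgeR adjusted p of 0.427, 0.502 and 0.433. With Holstein Friesian replicate 1 left out, the medians of the 16 were 0.07, -0.06 and 0.08, beside 0.04, 0.01 and 0.03 over all tested genes. With replicate 2 left out they were 0.01, -0.09 and 0.07, beside 0.02, 0 and 0.02. Medians do not show single genes. For Brangus over Holstein Friesian without replicate 1, 6 of the 16 were higher and 10 lower, with PIM1 at -1.25. For Kedah-Kelantan over Brangus, DDIT3 stood at -0.69 without replicate 1 and -0.70 without replicate 2. PIM1 stood there at 0.67 and 0.66.

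The genes most like BCL2 and BBC3, the member with the widest range, were sought by the smallest root mean square difference of mean-centred log2 CPM over the 6 libraries, among 11307 other genes. For BCL2 they were DNTTIP2 (0.15), POGLUT1 (0.18) and ZBTB26 (0.19). DNTTIP2 stood at 57.1 and 33.9 CPM in Kedah-Kelantan cows, 42.6 and 46.2 in Brangus cows, and 47.3 and 34.8 in Holstein Friesian cows, which has the high Kedah-Kelantan replicate 1 of BCL2. For BBC3 they were ITM2B (0.059), C25H16orf54 (0.062) and SEMA4A (0.081). ITM2B stood at 647 and 762 CPM in Kedah-Kelantan cows, 642 and 763 in Brangus cows, and 472 and 1426 in Holstein Friesian cows. The pattern of BBC3 was thus matched more closely than that of BCL2. Genes chosen for likeness to BBC3 share its contrast of the Holstein Friesian libraries by that choice. Of 9291 genes with a mean log2 CPM of at least 3, 2132 differed over 2-fold between these 2 libraries.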

How the data were processed

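Whole-blood RNA of 6 libraries from cows was analysed from tables of the whole series. The raw counts were deposited by the authors as whole-number read counts per gene. The FPKM values were deposited by the authors beside them and equal the counts per fixed gene length and library total, checked over 4304 genes to within 0.082%. Per the submitters' processing notes, the build was ARS-UCD1.2 and the tools were HISAT2 2.2.1, featureCounts 2.0.1, Trimmomatic 0.39, FastQC 0.11.9 and DESeq2 1.38.0; what each did and the strandedness remain not stated there. Positions are as deposited, and chromosome names matched a reference gene table for 99.8% of 16289 symbols and all 9 members.

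The test on counts was that of edgeR 4.0.16 in R 4.3.3 (TMM scaling, filterByExpr, robust quasi-likelihood F tests, breed as the only term, all 6 libraries), adjusted by Benjamini-Hochberg over 13455 genes at 0.05. The script was tested on simulated data. SE is the log2 fold change over the square root of F. Fold changes put the breed named first on top. Depth was 25275377 to 28668857 counts per library. The fit left 3 residual degrees of freedom, and the common biological variation (coefficient 0.431) is shared by all breeds. Alternatives used DESeq2 1.42.0, limma 3.58.1 on log2 FPKM with 0.1 or 1 added, other scaling and filters, a replicate block and each library left out.

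The members, the gene lists and the naming rule were chosen with earlier results of these data known. Named were the 9 members, the called genes or up to 3 with the smallest any-breed p per pathway list, a fixed set of central genes, and the 3 nearest patterns. A gene of the pathway lists is not reported here. Reads of MCL1 and BBC3 could in part belong to the related copies LOC101908048 and LOC132343931, which had 0 to 16 and 0 to 10 counts per library. The labels call the replicates biological but do not tie them to animals, so p-values measure the spread between these libraries.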

Additional observations from a re-analysis of the deposited data

How the results depend on the processing

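With n = 2 per breed and Holstein Friesian replicates that differed widely, calls depended on the samples and the tool more than the values of BCL2L1 did. The fold changes of the 9 members over the alternatives kept sign and side of the threshold in 351 cases, passed where they had not in 16 and changed sign in 38; the cause was not tested. Genes called numbered 1, 1, 0 and 0 for Kedah-Kelantan over Holstein Friesian, Brangus over Holstein Friesian, Kedah-Kelantan over Brangus and any breed difference. With DESeq2 they were 131, 313, 672 and 625, and the members called were 0, 1, 1 and 1. With a mean count of at least 50, or with only the 2 breeds compared, the first pair were both 0, and with only 2 breeds the third was 2537 with 2 members called. RLE size factors gave 0 for Brangus over Holstein Friesian. Without a low-count filter 1 gene was called for any breed difference. On log2(FPKM + 0.1) 3 were called for Brangus over Holstein Friesian and 1 for any breed difference, and on log2(FPKM + 1) 2, 1, 1 and 2 in the 4 comparisons. Leaving out 1 library in turn gave 0 to 2464, 0 to 4395, 0 to 2458 and 0 to 4783 genes called, and 0 to 2, 0 to 4, 0 to 2 and 0 to 4 members. The high ends came without a Holstein Friesian library.

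A replicate block gave 0 genes called for each of Kedah-Kelantan over Holstein Friesian and Brangus over Holstein Friesian, and changed no call of a member. Little shift shared by replicate number was seen: the correlation between breeds of replicate 2 minus replicate 1 over 11308 genes was 0.089, 0.0031 and 0.029. With 1 such difference per breed, these values cannot settle whether the numbers mark a pairing, and the labels do not give one.

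FPKM moved the median of all genes by 0.18, -0.08 and 0.26 on log2(FPKM + 0.1) in the 3 pairwise comparisons, and by 0.16, -0.07 and 0.25 on log2(FPKM + 1), and some members changed sign there, among them BID and BAD, which lay at -0.26 and -0.25 for Kedah-Kelantan over Brangus. For Kedah-Kelantan over Holstein Friesian MCL1 was 0.12 on both FPKM scales. For Kedah-Kelantan over Brangus, on the first and second scale, BAK1 was 0.17 and 0.16, BBC3 0.21 and 0.12, BID 0.00089 and 0.00090, and BAD 0.035 and 0.032.

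For Brangus over Holstein Friesian BID lay at 0.02 and was -0.0084 with RLE size factors, -0.020 without a low-count filter, -0.015 with a mean count of at least 50, -0.0083 with DESeq2, and -0.081 and -0.073 on the FPKM scales. It was -0.017 without Brangus replicate 1, -0.019 without Brangus replicate 2 and -0.0094 without Holstein Friesian replicate 2. In the same comparison, without Brangus replicate 2 BCL2 was -0.042 and BAD 0.13, without Holstein Friesian replicate 1 BAX was 0.16, and without Holstein Friesian replicate 2 BCL2 was -0.11, MCL1 0.37, BAK1 0.086, BCL2L11 0.26 and BBC3 0.50.

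With each library left out in turn, Kedah-Kelantan over Holstein Friesian ranged from -0.38 to 0.78 for BCL2, -0.54 to 0.42 for MCL1, -0.34 to 0.89 for BCL2L11 and -1.01 to 0.45 for BBC3. Brangus over Holstein Friesian ranged from -0.11 to 0.48 for BCL2, -0.60 to 0.37 for MCL1, -0.24 to 0.16 for BAX, -0.57 to 0.086 for BAK1, -0.98 to 0.26 for BCL2L11, -0.98 to 0.50 for BBC3, -0.019 to 0.013 for BID and -0.32 to 0.13 for BAD. Kedah-Kelantan over Brangus ranged from -0.56 to 0.61 for BCL2, -0.019 to 0.13 for MCL1, -0.22 to 0.053 for BAK1 and -0.24 to 0.19 for BBC3.

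The sign changes were these. For Kedah-Kelantan over Holstein Friesian, BCL2 was -0.38 without Kedah-Kelantan replicate 1, BCL2L11 -0.34 without Holstein Friesian replicate 1, and MCL1 0.42 and BBC3 0.45 without Holstein Friesian replicate 2. For Kedah-Kelantan over Brangus, BCL2 was -0.56, MCL1 -0.019, BAK1 0.053 and BBC3 0.073 without Kedah-Kelantan replicate 1, BCL2 -0.036 and MCL1 -0.014 without Brangus replicate 1, and BBC3 0.19 without Brangus replicate 2. The BCL2 to BAX log2 ratio was -0.14 to 1.48 for Kedah-Kelantan over Holstein Friesian and -0.36 to 1.26 for Kedah-Kelantan over Brangus with 1 library left out, so its sign rested on Kedah-Kelantan replicate 1.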

Other observations

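BCL2 was among the few genes that separated the Kedah-Kelantan replicates, which were otherwise the most alike of the 3 breeds. Over 9291 genes with a mean log2 CPM of at least 3, a limit chosen after the values were seen, the median absolute log2 difference between replicates was 0.13 in Kedah-Kelantan cows, 0.18 in Brangus cows and 0.49 in Holstein Friesian cows. Only 14 of these genes differed over 2-fold between the Kedah-Kelantan replicates, against 223 in Brangus cows and 2132 in Holstein Friesian cows, and BCL2 ranked 9 (log2 difference -1.16, replicate 2 minus replicate 1). Of the 14, 12 were higher in replicate 1, among them SOCS7 (469 and 149 counts in replicates 1 and 2), KLF13 (666 and 271), the B cell factor PAX5 (1388 and 587) and SMC1A (1462 and 719). The summed B cell markers, PAX5 included, stood at 1964 and 2100 CPM in these libraries, so the list as a whole did not show this gap. The exceptions on the other side were MGC126945 (425 and 2893 counts) and S100A1 (118 and 237).

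BCL2L15, a family member described mainly from the gut, had the highest FPKM of the family after MCL1. It stood at 85.5 and 93.2 FPKM in Kedah-Kelantan cows, 48.7 and 119 in Brangus cows, and 55.5 and 210 in Holstein Friesian cows, on an implied length of 0.817 kb. In CPM the range was 43.0 to 183, and the replicates of both Brangus and Holstein Friesian differed widely, at 43.0 and 107 CPM and at 43.7 and 183 CPM. It passed in no comparison. Neutrophil markers were higher in the second replicate of both breeds (2978 and 4596 CPM in Brangus cows, 991 and 8253 in Holstein Friesian cows), and their part in the level of BCL2L15 was not tested.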
